A study of Mus musculus with 8 samples.

Results

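The 9 genes described here encode the core of neuronal nitric oxide and cyclic GMP (cGMP) signaling in the medial entorhinal cortex (MEC) of the mouse: the synthase Nos1, the soluble guanylyl cyclase subunits Gucy1a2, Gucy1a3 and Gucy1b3, the cGMP-dependent kinases Prkg1 and Prkg2, and the phosphodiesterases Pde2a, Pde5a and Pde9a. They were picked by symbol from the 38553 genes of the deposited tables, by their role and not by a threshold on their values, and all 9 were found. Earlier results of these data were known when they were chosen. Gucy1a3 and Gucy1b3 are older symbols of the genes now called Gucy1a1 and Gucy1b1. The animals were 13 male C57BL/6JolaHsd mice, 8 weeks old, and their dorsal and ventral MEC was microdissected from 1 sagittal slice of the right hemisphere per brain, and the labels name no genetic change or drug in either group. Tissue was pooled over 3 or 4 mice in each of 4 groups of mice, which gave 4 dorsal and 4 ventral libraries, so each value below is that of a pool and p-values measure the spread between pools. The labels do not say which dorsal pool and which ventral pool came from the same mice.

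Nitric oxide is made by neuronal nitric oxide synthase when calcium enters the cell, and it diffuses across membranes to neighboring cells. There it binds the heme of soluble guanylyl cyclase, a dimer of an alpha and a beta subunit, which then makes cGMP. The kinases carry the signal onwards and the phosphodiesterases end it by hydrolyzing cGMP. In the cortex the strongest Nos1 expression is known from sparse GABAergic neurons with long axons that also express Sst and Npy.

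Before any comparison, 4 of the 8 column headers of the table of single libraries name the other region than the grouping used here. Columns D1, V1, D2 and V2 were taken as dorsal and D3, V3, D4 and V4 as ventral, because their means matched the deposited mean of the corresponding region for 21861 of 21876 genes to within 0.1%. The deposited means carry no region name and were tied to the regions by a supplementary list of the study, whose dorsal and ventral values they matched for 1435 of 1435 genes. The best of the other ways to choose 4 of 8 columns matched 1273 genes, and the grouping that the headers name matched 326 genes. Libraries are therefore named below by their header, and the regions are those of the deposited means. Every dorsoventral result rests on this grouping, and with the regions as the headers name them limma called 1 of 13674 genes, which was not among the 9 (721 genes had an unadjusted p under 0.05).

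Values are FPKM, counts of sequenced fragments scaled by the length of a gene's exons and by the size of the library, a scale on which levels of different genes can be set beside each other. The number of fragments per library was not used here, so the depth is unknown. As a rough proxy, the inverse of the typical value of 1714 barely detected genes was 0.923 to 1.08 across the 8 libraries, relative to their median. It reflects depth only if such values stand for very few fragments, which was not checked. Mitochondrial genes took 5.60 to 7.28% of all FPKM in 6 libraries but 11.7% in the dorsal library headed V2 and 10.9% in the ventral library headed V4. Neuronal markers matched the tissue label: Slc17a7, the vesicular glutamate transporter of cortical excitatory neurons, was at 107 ± 8.97 FPKM dorsally and 105 ± 9.67 FPKM ventrally, and Reln, a layer II marker of MEC, was at 31.7 ± 2.62 and 35.8 ± 3.52 FPKM (SD, n = 4). The other two markers of the layer II list were called in opposite directions, Wfs1 D>V at 76.6 ± 9.09 and 52.5 ± 4.45 FPKM (limma adjusted p = 0.0133) and Calb1 V>D at 4.57 ± 0.169 and 7.85 ± 2.05 FPKM (limma adjusted p = 0.0306). Of the dentate and hippocampal markers, Prox1, which marks dentate granule cells, was not called, at 4.48 ± 0.491 FPKM dorsally and 3.49 ± 0.462 FPKM ventrally, and Dsp was under the filter. Fibcd1 of that list was V>D at 0.641 ± 0.215 and 2.52 ± 0.651 FPKM (limma adjusted p = 0.00296), and Wfs1, which the list shares, was D>V. Of the markers of other cells, limma called 3 of 10 for interneurons (Pvalb and Lamp5 D>V, Calb2 V>D), 1 of 6 for glutamatergic neurons (Slc17a6 D>V), and none of 6 each for astrocytes and microglia, of which 3 and 2 had an unadjusted p under 0.05.

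The dimer partners Gucy1a2 and Gucy1b3 both had higher FPKM in each dorsal library than in any ventral library. So did 6.17% of all tested genes. Of the pair, limma called Gucy1a2 (limma adjusted p = 0.0479) but not Gucy1b3 (limma adjusted p = 0.145). The 250 bases before their RefSeq starts are shown because of this shared pattern, and no link of sequence to expression was tested. The sequences are those of RefSeq on GRCm38.p6, read 5′ to 3′ on the strand of the gene, and lie outside every exon of the GENCODE M21 annotation. The Gucy1a2 window is chr9:3532099-3532348 on the plus strand and the Gucy1b3 window is chr3:82074712-82074961 on the minus strand. They do not reach the GENCODE starts of these genes, chr9:3532778 for Gucy1a2 and chr3:82074689 for Gucy1b3. Capitals mark a GC box (GGGCGG) or the core of a cAMP response element (TGACG), searched on both strands, which do not overlap each other here.
Gucy1a2: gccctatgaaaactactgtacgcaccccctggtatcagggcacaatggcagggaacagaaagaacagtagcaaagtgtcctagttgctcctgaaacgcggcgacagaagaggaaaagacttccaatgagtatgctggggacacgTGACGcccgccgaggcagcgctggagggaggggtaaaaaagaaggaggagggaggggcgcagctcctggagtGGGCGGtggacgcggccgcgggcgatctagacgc
Gucy1b3: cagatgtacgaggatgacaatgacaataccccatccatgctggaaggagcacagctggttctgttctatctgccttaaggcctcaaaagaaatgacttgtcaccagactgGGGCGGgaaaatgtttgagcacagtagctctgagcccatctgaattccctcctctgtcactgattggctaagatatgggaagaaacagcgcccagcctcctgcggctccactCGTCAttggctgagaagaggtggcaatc
Each window held 1 GC box and 1 such core, and neither held a TATA box (TATAAA). Among 32851 RefSeq windows of the same length, 32.7% held a GC box, 17.8% the core and 12.4% a TATA box. The Gucy1a2 window held 17 CpG dinucleotides at 59.6% G and C, and the Gucy1b3 window 5 at 51.2%, against a median of 6 and 52.4% over all windows. RefSeq windows were found for 7 of the 9 genes, and none held a TATA box. The core also stood in the Nos1 window, and a GC box in at least 1 window each of Gucy1a3, Prkg1, Pde2a and Pde5a. The windows of Gucy1a3 and Pde5a reached into exons of the gene and are not shown.

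All 9 genes passed the filter on low values, a mean of at least 1 FPKM over the 8 libraries. They covered a wide range of levels (plot of FPKM per library). Pde2a was the most abundant in both regions, with a mean over all libraries of 69.7 FPKM, above 94.6% of the 13674 genes tested. Gucy1b3 and Gucy1a2 followed at 24.6 and 24.3 FPKM, above 80.3% and 80.0% of tested genes. Gucy1a3 at 7.85 FPKM was close to the median of tested genes, 7.98 FPKM, and Pde9a (6.76), Nos1 (5.83), Prkg2 (4.03), Prkg1 (3.94) and Pde5a (2.11 FPKM) lay under it.

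In the dorsal libraries the order of mean FPKM was Pde2a, Gucy1a2, Gucy1b3, Gucy1a3, Pde9a, Nos1, Prkg1, Prkg2 and Pde5a. The ranges of Gucy1a2 and Gucy1b3, of Pde9a and Nos1, and of Prkg1 and Prkg2 overlapped, so these neighbors were not separated by the spread between libraries, while every other neighbor in the order was. In the ventral libraries the order was Pde2a, Gucy1b3, Gucy1a2, Pde9a, Gucy1a3, Nos1, Prkg2, Prkg1 and Pde5a. There the ranges overlapped between Gucy1b3 and Gucy1a2, between Pde9a and Gucy1a3, between Gucy1a3 and Nos1, and between Prkg2 and Prkg1. Pde9a was thus level with Nos1 and below Gucy1a3 dorsally, and level with Gucy1a3 and above Nos1 in mean ventrally.

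**Figure D1:**
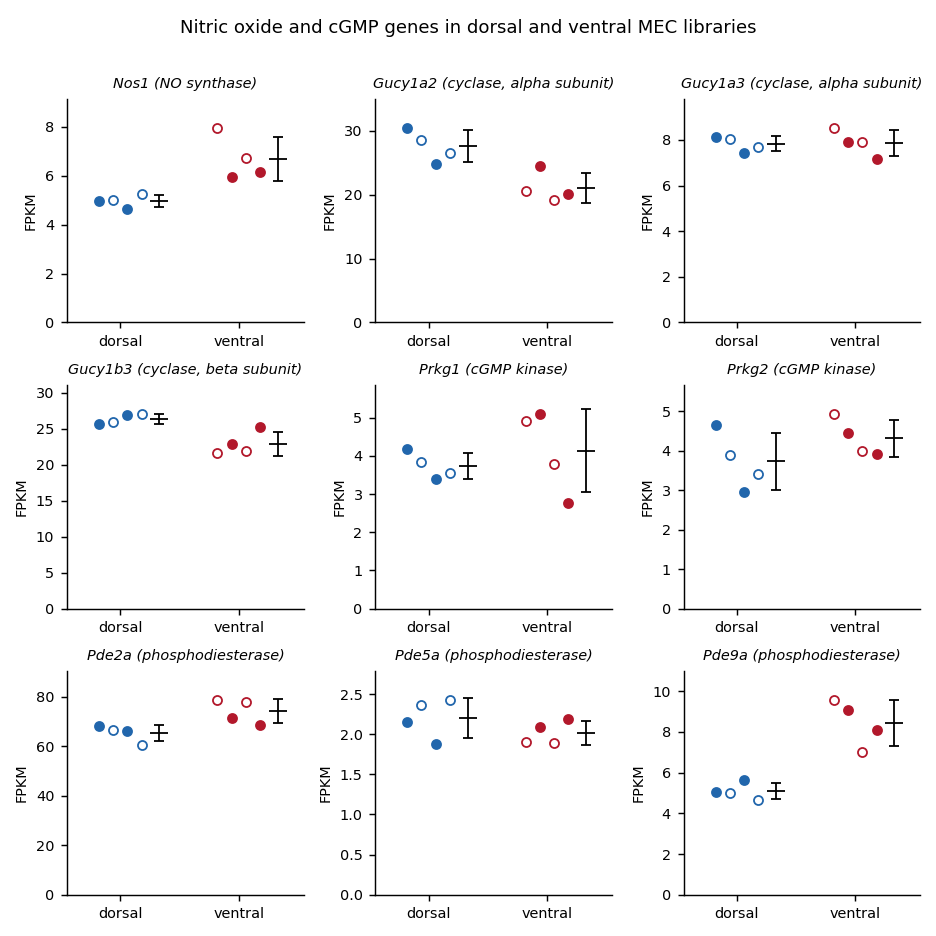
FPKM of the 9 genes in each dorsal (blue) and ventral (red) library. Filled circles are libraries with a matching column header, open circles those headed with the other region, in the order D1, V1, D2, V2 and D3, V3, D4, V4, and black marks give the mean and SD of 4 libraries. Pde9a is at 4.68 to 5.63 FPKM dorsally and 6.99 to 9.56 FPKM ventrally, and Gucy1a2 at 24.8 to 30.5 FPKM dorsally and 19.1 to 24.4 FPKM ventrally.

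The comparison of the 2 regions asks whether expression is organized along the dorsoventral axis of MEC. Of the 9 genes, limma on log2(FPKM + 1) called 1 D>V, the alpha subunit gene Gucy1a2, and 1 V>D, the phosphodiesterase gene Pde9a. A gene was called at an adjusted p under 0.05, with Benjamini-Hochberg adjustment over all 13674 genes tested, and a ratio of mean FPKM of at least 20% in either direction. Over all tested genes 294 (2.15%) were called D>V and 198 (1.45%) V>D. Rescaling each library to the same total FPKM changed this split to 195 D>V and 201 V>D. The FPKM of the regions did not overlap for 5 of the 9 genes, with 2 higher dorsally (Gucy1a2, Gucy1b3) and 3 higher ventrally (Nos1, Pde2a, Pde9a). Over all tested genes the regions did not overlap for 6.17% with the higher values dorsally and for 4.95% with the higher values ventrally. The exact two-sided permutation test over the 70 splits of 8 libraries gave the 4 genes whose regions overlapped p between 0.229 and 0.943. Regions that do not overlap always get the smallest p of this test, 0.0286. For the 5 genes it therefore only restates the lack of overlap. In bulk tissue, fewer cells that express a gene and less RNA of it per cell cannot be told apart.

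Nos1, the calcium-dependent synthase that makes nitric oxide in neurons, lies at chr5:117781032-117958840 on the plus strand (GRCm38, GENCODE M21). It was at 4.98, 5.01, 4.62 and 5.24 FPKM in the dorsal libraries headed D1, V1, D2 and V2, and at 7.96, 5.94, 6.72 and 6.14 FPKM in the ventral libraries headed D3, V3, D4 and V4. Every ventral library was above every dorsal one, and the ventral libraries varied more among themselves, with D3 the highest. The means were 4.96 ± 0.255 and 6.69 ± 0.907 FPKM (SD, n = 4), a ventral value 1.35 times the dorsal one. The log2 fold change was 0.36 (SE 0.09, 95% interval 0.16 to 0.56), and limma's adjusted p of 0.0627 did not pass the threshold. It passed without the ventral library headed V3 (limma adjusted p = 0.0485) and with weights for library quality (limma adjusted p = 0.0360). Exons of the gene Gm26995 overlap those of Nos1, and whether fragments were counted by strand is not stated in the sources used here.

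Sst and Npy, the peptides known from the neurons with the strongest Nos1 expression, differed in opposite directions. Sst was V>D, at 81.5 to 150 FPKM dorsally and 169 to 262 FPKM ventrally (log2 fold change 1.02, SE 0.19, limma adjusted p = 0.0147). Npy was D>V, at 15.6 to 20.7 FPKM dorsally and 7.76 to 11.8 FPKM ventrally (log2 fold change -0.95, SE 0.13, limma adjusted p = 0.00279). The other 2 markers of that list, Chodl and Tacr1, were under the filter, at no more than 0.796 and 0.213 FPKM, and none of the 4 was at 0 in any library. The summed level of all 4 was 97.6 to 170 FPKM dorsally and 178 to 272 FPKM ventrally. Most of this sum was Sst, so it follows Sst and not Npy, which went the other way. The part of these cells in the Nos1 values was not tested.

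Gucy1a2 encodes the alpha2 subunit of soluble guanylyl cyclase, the form that is held at synapses. The gene lies at chr9:3532778-3894736 on the plus strand, and no exon of another gene overlaps its exons. Its FPKM was 30.5, 28.6, 24.8 and 26.6 in the dorsal libraries (D1, V1, D2, V2) and 20.6, 24.4, 19.1 and 20.1 in the ventral libraries (D3, V3, D4, V4). The lowest dorsal library, D2, was just above the highest ventral one, V3. The dorsal mean of 27.6 ± 2.45 FPKM was 1.31 times the ventral mean of 21.1 ± 2.32 FPKM (SD, n = 4). The log2 fold change was -0.38 (SE 0.09, 95% interval -0.58 to -0.18) and the limma adjusted p was 0.0479, close to the threshold. The call was lost when D1, V1, D2, V2, D3, D4 or V4 was left out (limma adjusted p 0.0520 to 0.140) and held without V3 (limma adjusted p = 0.0176). It was also lost after rescaling each library to the same total FPKM (limma adjusted p = 0.155).

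Gucy1b3 encodes the beta1 subunit, which carries the heme and is shared by both dimers. It lies at chr3:82032006-82074689 on the minus strand, and 17737 bases separate it from Gucy1a3, its neighbor on the same strand. Its FPKM was 25.6, 25.9, 26.9 and 27.0 dorsally and 21.7, 22.9, 21.9 and 25.2 ventrally, in the same order of libraries. The dorsal values lay close together and all above the ventral ones, of which V4 came nearest. The means were 26.4 ± 0.710 and 22.9 ± 1.63 FPKM (SD, n = 4). The log2 fold change was -0.20 (SE 0.06, 95% interval -0.34 to -0.05) and limma's adjusted p of 0.145 did not pass the threshold.

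Gucy1a3, the gene of the alpha1 subunit, lies at chr3:82092427-82145789 on the minus strand, and exons of Mir7010 overlap its exons. It was at 8.15, 8.06, 7.43 and 7.68 FPKM dorsally and at 8.53, 7.91, 7.93 and 7.15 FPKM ventrally. The regions overlapped throughout, and the ventral libraries held both the highest and the lowest value. The log2 fold change was 0.01 with a 95% interval of -0.15 to 0.16 (limma adjusted p = 0.980), and changes within that interval cannot be told from none.

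Among the alpha subunits, Gucy1a2 made up 78.9, 78.0, 76.9 and 77.6% of the summed FPKM of Gucy1a2 and Gucy1a3 in the dorsal libraries and 70.7, 75.5, 70.7 and 73.8% in the ventral ones. The share was higher in every dorsal library (77.9% ± 0.817) than in any ventral one (72.7% ± 2.40, SD, n = 4). This share uses the values of the called gene, so it is a description of the same difference and not a separate result. The summed alpha subunits stood at 1.35 ± 0.140 times the FPKM of Gucy1b3 dorsally and 1.27 ± 0.145 times ventrally (SD, n = 4), and these ranges overlapped (plot of ratios within each library). In both regions the alpha2 gene was thus the main alpha transcript by FPKM.

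Markers of oligodendrocytes were higher in the same direction as Gucy1a2 and Gucy1b3. All 5 of 5 (Mbp, Mog, Mag, Mobp, Cnp) were called D>V, and their summed level was 552 to 746 FPKM dorsally and 303 to 399 FPKM ventrally, with the defining marker Mbp well above 0 in all libraries. None of the 9 tested endothelial markers was called by limma (2 had an unadjusted p under 0.05), and the sum of the 10 listed was 35.7 to 41.2 FPKM dorsally and 27.6 to 34.3 FPKM ventrally, with the defining markers Cldn5 and Flt1 not at 0 in any library. The part of these cells in the cyclase values was not tested.

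**Figure D2:**
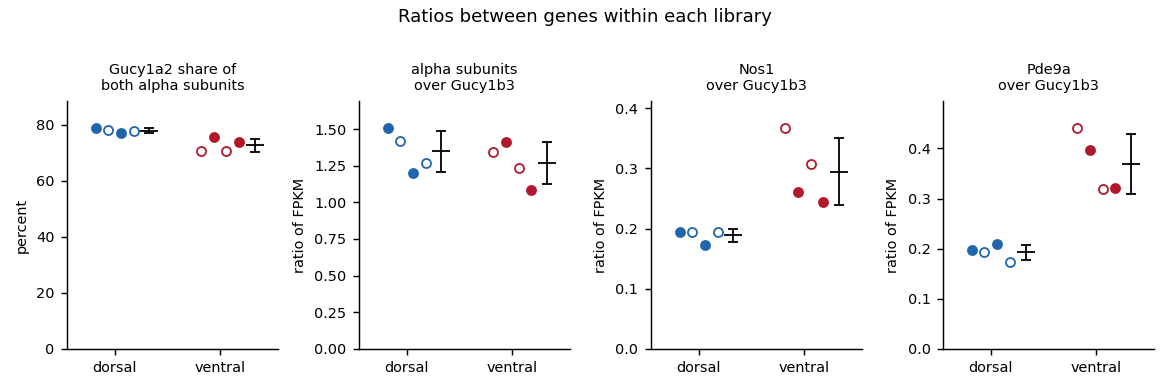
Ratios between genes computed within each library, for dorsal (blue) and ventral (red) libraries, with open circles where the header names the other region and the mean and SD of 4 libraries in black. The vertical axes are the percent of summed alpha subunit FPKM that is Gucy1a2, and ratios of FPKM to that of Gucy1b3. The ratio of the alpha subunits to Gucy1b3 overlaps between regions, while those of Nos1 and of Pde9a to Gucy1b3 do not.

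Prkg1 and Prkg2 encode cGMP-dependent kinases I and II, the main protein kinases that cGMP activates. Prkg1 lies at chr19:30564489-31765033 and Prkg2 at chr5:98929773-99037351, both on the minus strand, with no exon of another gene over theirs. Prkg1 was at 4.18, 3.84, 3.39 and 3.55 FPKM dorsally and at 4.90, 5.09, 3.79 and 2.76 FPKM ventrally. The ventral libraries were the more scattered, with a coefficient of variation of 26.2% against 9.29% dorsally, and the ventral library V4 was below all the others. Prkg2 was at 4.64, 3.91, 2.95 and 3.42 FPKM dorsally and at 4.93, 4.45, 4.00 and 3.91 FPKM ventrally. Its dorsal values reached from below the lowest ventral library to above all but D3.

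Neither kinase passed the test. The log2 fold change was 0.09 for Prkg1 (95% interval -0.23 to 0.42, limma adjusted p = 0.825) and 0.18 for Prkg2 (95% interval -0.08 to 0.44, limma adjusted p = 0.529). These intervals still hold changes as large as that of Nos1. By FPKM the kinases were near equal in both regions: Prkg2 made up 49.7% ± 2.54 of their sum dorsally and 51.7% ± 5.05 ventrally (SD, n = 4), and the regions overlapped. Of the 8 mural cell markers tested, a cell type in which Prkg1 is well known, 1 was called, Vtn (V>D, limma adjusted p = 0.0229). The defining mural markers Rgs5 and Pdgfrb were not called and were not at 0 in any library, and the summed level of the list was 55.4 to 72.5 FPKM dorsally and 58.2 to 69.8 FPKM ventrally.

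Pde9a, a phosphodiesterase with high affinity for cGMP, differed most of the 9 genes. It lies at chr17:31386210-31476310 on the plus strand, where exons of the gene models AC166172.5 and AC166172.6 overlap its exons. It was at 5.05, 4.99, 5.63 and 4.68 FPKM in the dorsal libraries and at 9.56, 9.06, 6.99 and 8.10 FPKM in the ventral libraries. The regions were well apart, since the lowest ventral library, D4, stood 1.37 FPKM above the highest dorsal one, D2. The ventral mean of 8.43 ± 1.13 FPKM was 1.66 times the dorsal mean of 5.09 ± 0.396 FPKM (SD, n = 4).

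On the log2(FPKM + 1) scale the Pde9a fold change was 0.63 (SE 0.10, 95% interval 0.41 to 0.84, limma adjusted p = 0.00687), and the gene was number 144 of all tested genes in the order of p. The call held when any 1 library was left out, with limma adjusted p from 0.00546 to 0.0301. Without both libraries of high mitochondrial share, V2 and V4, the log2 fold change was 0.61 and the limma adjusted p 0.0557, so the call was lost with 3 libraries per region. The 4 libraries with matching headers, D1 and D2 against V3 and V4, gave 0.60 (limma adjusted p = 0.300), in a fit that called no gene (1240 had an unadjusted p under 0.05).

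Pde2a, whose enzyme is stimulated by cGMP and hydrolyzes both cGMP and cAMP, was at 68.1, 66.4, 66.1 and 60.6 FPKM dorsally and at 78.6, 71.5, 77.7 and 68.6 FPKM ventrally. All ventral libraries were above all dorsal ones, V4 by the least. The means were 65.3 ± 3.27 and 74.1 ± 4.83 FPKM (SD, n = 4), and the log2 fold change of 0.18 (SE 0.07, 95% interval 0.03 to 0.33, limma adjusted p = 0.212) did not pass the test. The identifier that the files pair with the symbol Pde2a is named Gm45837 in GENCODE M21, at chr7:101410886-101512819 on the plus strand, with exons that overlap those of Pde2a and Arap1. The deposited locus of this identifier, from the Ensembl annotation that the authors used, is chr7:101421691-101512829 and starts further downstream. Whether the overlaps seen in M21 also held in that annotation was not checked, so the Pde2a level is uncertain.

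Pde5a, a cGMP-specific phosphodiesterase, lies at chr3:122728947-122859374 on the plus strand, where exons of 4930447N08Rik overlap its exons. It was at 2.15, 2.37, 1.87 and 2.42 FPKM dorsally and at 1.90, 2.09, 1.89 and 2.19 FPKM ventrally. The regions overlapped, with the lowest value of all in a dorsal library. The log2 fold change was -0.08 (95% interval -0.29 to 0.12, limma adjusted p = 0.737). Of the 3 phosphodiesterase genes, then, 1 was called V>D, and the other two did not pass.

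Within libraries, Pde9a stood at 0.197, 0.193, 0.209 and 0.173 times the FPKM of Gucy1b3 dorsally and at 0.441, 0.396, 0.320 and 0.321 times ventrally. The lowest ventral ratio was above the highest dorsal one, so the transcript of an enzyme that removes cGMP was higher in the ventral libraries relative to that of a subunit of the enzyme that makes it. Nos1 relative to Gucy1b3 was at 0.188 ± 0.0111 dorsally and 0.295 ± 0.0555 ventrally, and Pde9a relative to Pde2a at 0.0779 ± 0.00499 and 0.114 ± 0.0165 (SD, n = 4), again with no overlap. Like the alpha share, these ratios restate the values of their genes and carry no test of their own.

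Leptomeningeal markers were higher ventrally in mean, as Pde9a was, for all 6 tested, while of the 8 mural markers tested 4 were higher and 4 lower. Of the 6 leptomeningeal markers tested, 2 were called V>D: Dcn at 21.4 to 30.8 FPKM dorsally and 42.8 to 57.7 FPKM ventrally (limma adjusted p = 0.00246), and Igf2 at 34.3 to 38.0 and 52.4 to 55.9 FPKM (limma adjusted p = 0.000775). The summed level of the list was 74.1 to 78.6 FPKM dorsally and 118 to 130 FPKM ventrally. Its other defining marker, Col1a1, was under the filter at 0.690 to 1.49 FPKM, with no library at 0. The part of these cells in the Pde9a values was not tested.

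**Figure D3:**
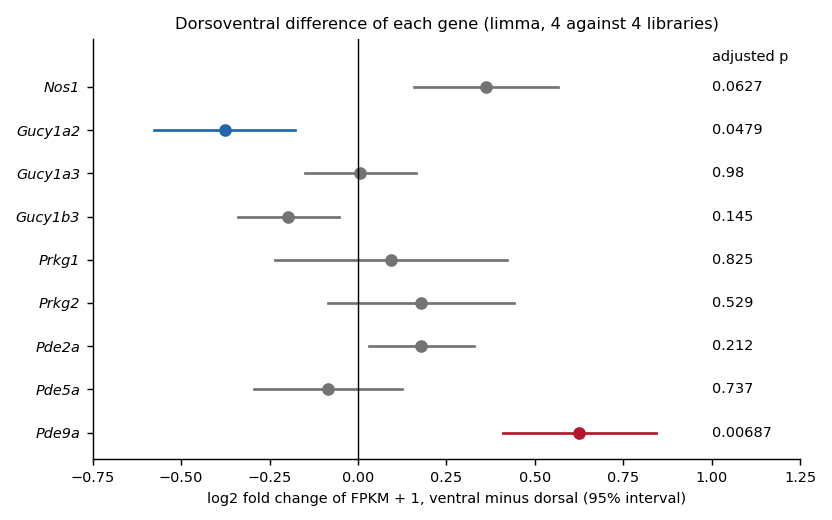
Log2 fold change of FPKM + 1, ventral minus dorsal, of each gene from limma on 4 dorsal and 4 ventral libraries, with 95% intervals and adjusted p at the right. Blue marks the gene called D>V, red the gene called V>D and gray those not called. The intervals of Gucy1a3, Prkg1, Prkg2 and Pde5a cross 0, and those of Nos1, Gucy1b3 and Pde2a do not although the genes were not called.

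Another 57 genes with a known role in nitric oxide or cGMP signaling were listed by role, of which 30 passed the filter and were tested. Of these, 1 was called D>V (Qdpr) and 3 were called V>D (Npr3, Pde1a, Cygb), and 26 were not called, against 2.15% and 1.45% of all tested genes. The median log2 ratio of ventral to dorsal mean FPKM was 0.00 over the 30, with 15 genes above 0 and 15 below, beside -0.01 over all tested genes (plot of the genes by role). Among the 9 genes the median was 0.15, with 6 above 0 and 3 below. Neither list was drawn without knowledge of earlier results, so these are descriptions.

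For synthesis and supply, 12 of 18 genes were tested and 1 was called. Qdpr, which regenerates the tetrahydrobiopterin cofactor used by nitric oxide synthases and by amino acid hydroxylases, was at 24.6, 29.6, 29.6 and 25.5 FPKM dorsally and 16.8, 17.3, 16.7 and 17.9 FPKM ventrally. Every dorsal library was above every ventral one by a wide margin (log2 fold change -0.64, SE 0.07, limma adjusted p = 0.00162), and the call held with any 1 library left out. It also held without V2 and V4 (limma adjusted p = 0.0147). The oligodendrocyte markers, 5 of 5 called D>V, moved with it, and their part in the Qdpr values was not tested. The most abundant gene of the group, Dlg4, the scaffold that ties neuronal nitric oxide synthase to NMDA receptors, was at 227 ± 15.2 FPKM dorsally and 249 ± 29.6 FPKM ventrally (SD, n = 4, limma adjusted p = 0.560). The other synthases Nos2 and Nos3, named here after their values were seen, were under the filter at no more than 0.0528 and 0.328 FPKM, so Nos1 was the only synthase tested.

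Of the other cyclases, the natriuretic peptides and their receptors, 3 of 11 genes were tested. Npr3, the receptor that clears natriuretic peptides, was called V>D at 1.77, 1.85, 1.57 and 1.60 FPKM dorsally and 2.78, 3.12, 2.50 and 2.77 FPKM ventrally (log2 fold change 0.49, SE 0.09, limma adjusted p = 0.0155). The regions did not overlap, and the call was lost without the ventral library D3 (limma adjusted p = 0.0529). Npr2, the receptor cyclase for C-type natriuretic peptide and the most abundant of the group, was at 12.2 ± 2.17 and 12.8 ± 1.18 FPKM (SD, n = 4, limma adjusted p = 0.824).

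Of the other genes named as phosphodiesterases, 7 of 11 were tested and 1 was called. Pde1a, which calcium and calmodulin activate, was at 106, 79.6, 90.7 and 97.3 FPKM dorsally and at 130, 130, 117 and 138 FPKM ventrally. It was the most abundant phosphodiesterase of the list, with no overlap between regions (log2 fold change 0.46, SE 0.09, limma adjusted p = 0.0214). The call was lost without V1, D2, D3 or V4 (limma adjusted p 0.0560 to 0.0674). Together with Pde9a, 2 of the 10 tested genes listed under that name were V>D and none was D>V. Over all tested genes 1.45% were called V>D and 2.15% D>V. Among the 7 tested here, 4 had the higher mean ventrally and 3 dorsally. Of the 3 phosphodiesterases among the 9 genes, 2 had it ventrally and 1 dorsally.

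None of the 6 tested genes of 14 for effectors and export was called by limma, and 1 had an unadjusted p under 0.05. The most abundant, Kcnma1, the large-conductance calcium-activated potassium channel that cGMP kinase I acts on, was at 77.3 ± 6.02 FPKM dorsally and 70.5 ± 3.75 FPKM ventrally (SD, n = 4, limma adjusted p = 0.429). For the handling of nitric oxide, 2 of 3 genes were tested. Cygb, a globin that can consume nitric oxide, was V>D at 6.62, 6.59, 5.92 and 5.35 FPKM dorsally and 10.1, 8.03, 10.1 and 9.20 FPKM ventrally (log2 fold change 0.54, SE 0.09, limma adjusted p = 0.0114). The regions were apart and the call held with any 1 library left out, but exons of Prcd overlap those of Cygb. Adh5, which breaks down S-nitrosoglutathione, was at 20.7 ± 2.17 and 20.1 ± 1.11 FPKM (SD, n = 4, limma adjusted p = 0.887). Npr3, Pde1a and Cygb were each lost without both V2 and V4 (limma adjusted p 0.0749 to 0.0986).

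**Figure D4:**
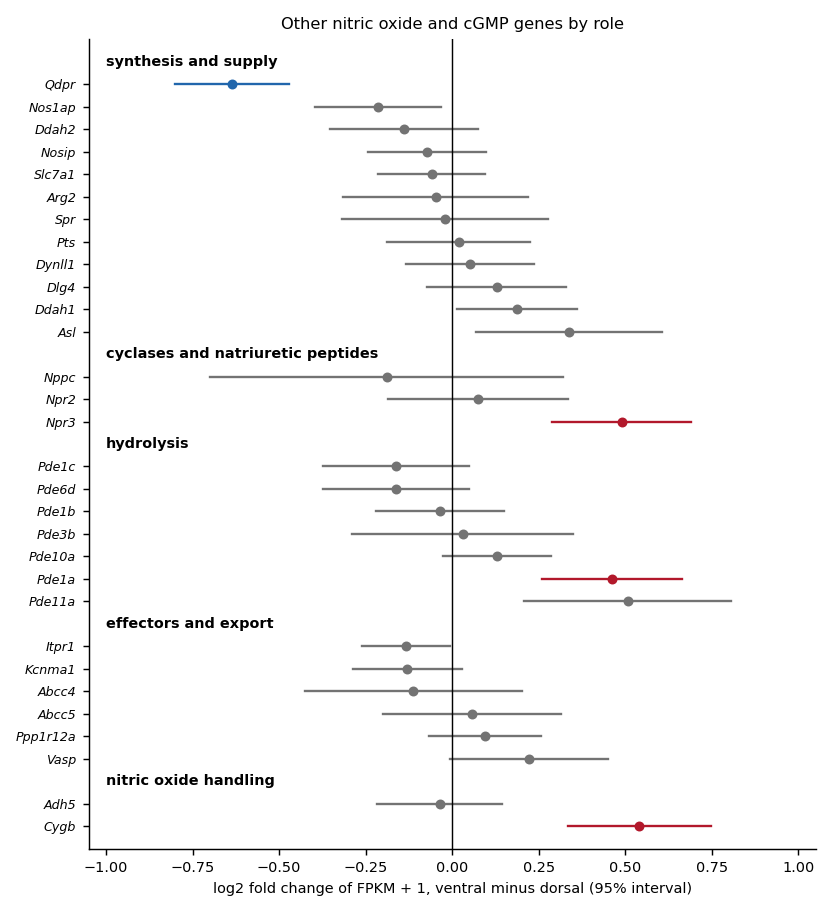
Log2 fold change of FPKM + 1, ventral minus dorsal, with 95% intervals from limma, of the 30 tested genes of the pathway outside the 9, grouped by role. Blue marks the gene called D>V (Qdpr), red the genes called V>D (Npr3, Pde1a, Cygb) and gray those not called.

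The regions did not overlap for 7 of these 30 genes, 2 with the higher values dorsally and 5 ventrally, against 6.17% and 4.95% of all tested genes. Beside the called genes these were Itpr1, the IP3 receptor that cGMP kinase I can act on, at 35.4 to 36.6 FPKM dorsally and 30.4 to 34.2 FPKM ventrally, Pde11a at 0.788 to 1.19 and 1.46 to 2.50 FPKM, and Vasp, a substrate of the kinases, at 0.732 to 0.965 and 1.08 to 1.32 FPKM. The latter were named after their values were seen, and their limma adjusted p were 0.284, 0.0736 and 0.326.

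The genes whose values across the 8 libraries were most like those of a called gene were ranked by Pearson correlation of log2(FPKM + 1). For Gucy1a2 these were Cabyr (r = 0.99), Diap2 (0.98) and Ralgapa1 (0.98), of which Cabyr was itself called D>V, and 174 genes had an r above 0.9. For Pde9a they were Dpyd (0.99), Sv2c (0.98) and Sec24d (0.96), of which Dpyd and Sv2c were called V>D, and 98 genes had an r above 0.9. All values come from the same 8 libraries, and a gene that differs between the regions correlates with others that do.

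The choice of libraries moved the fold changes unequally (plot of fold changes by choice of libraries). With any 1 library removed, the log2 fold change of Pde9a stayed between 0.57 and 0.70, that of Gucy1a2 between -0.45 and -0.33 and that of Nos1 between 0.29 and 0.41. Gucy1b3 stayed between -0.24 and -0.17 and Pde2a between 0.14 and 0.21. The regions did not overlap for any of these genes, so leaving out 1 library could not change a sign. Prkg1 ranged from 0.00 to 0.24, and Gucy1a3 changed its sign in 3 of the 8 fits. With the regions as the headers name them all 9 fold changes had the opposite sign and lay between -0.12 and 0.15.

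**Figure D5:**
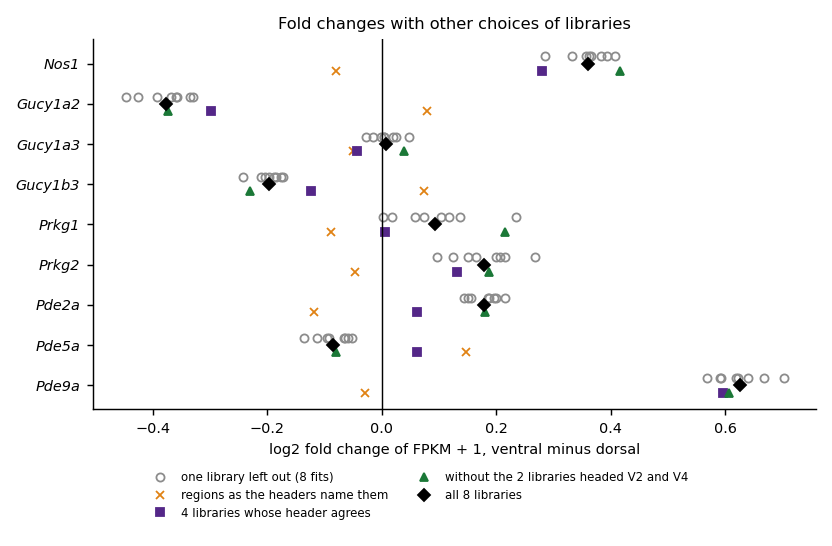
Log2 fold change of FPKM + 1, ventral minus dorsal, of each gene with all 8 libraries (black diamonds), with 1 library left out (gray circles, 8 fits), without the libraries headed V2 and V4 (green triangles), with the 4 libraries headed with the region they are grouped in (purple squares) and with the regions as the headers name them (orange crosses). The crosses lie on the other side of 0 from the diamonds for each gene, and the purple squares lie on the same side except for Gucy1a3 and Pde5a.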

How the data were processed

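RNA-Seq was carried out on 4 dorsal and 4 ventral MEC pools. Per the labels, RNA had integrity numbers of 7.1 to 8.5, and cDNA was made from 120 ng with the Ovation RNA-Seq System V2 and sequenced as paired ends on Illumina HiSeq. According to their methods and the submitters' processing notes, the authors used CASAVA 1.8, TopHat2 2.0.8 and Cuffdiff with the Ensembl annotation. The deposited FPKM were computed by the authors with Cuffdiff, which divides by exon length and scales libraries to each other. Whether counting used strand is not given in the sources used here. Of the deposited comparison table, the identifiers, loci, status and mean FPKM per region were used. Its fold changes, p-values and q-values are the authors' own comparison and were not used. The long table of single libraries, whose rows carry only a condition and a number (4 columns of values per sample), was not used. Its fragment counts would have given the depth, which stays unknown, so intervals cover only the spread between libraries.

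Genes with enough alignments by the deposited status (14989) and a mean FPKM of at least 1 (13674) were tested with limma 3.58.1 (R 4.3.3) after adding 1 FPKM and taking log2, with a trend of the variance over the mean, and Benjamini-Hochberg adjustment. A gene was called at an adjusted p under 0.05 and a ratio of mean FPKM of at least 1.2. Fold changes on this scale understate those of low genes. The procedure was also run on simulated data, and the outcome is not reported here, so no result above rests on it. Alternatives were the pseudocount (0.1), no filter or 5 FPKM, rescaling to the same total, quantile normalization, library weights, leaving out each library, the regions of the headers, and the 4 agreeing libraries. Figures were drawn in Python 3.11.15 with matplotlib 3.10.9. Positions and exon overlaps are from GENCODE M21 (GRCm38), which is not the Ensembl annotation behind the deposited FPKM.

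The 9 genes, the other gene lists and the tests were chosen with earlier results of these data known. Named were the 9 genes, every called gene of the other lists, the most abundant gene of each role, the 3 genes most like each called gene and the defining markers. A gene of the oligodendrocyte list is not reported here and was left out of its counts and sums.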

Additional observations from a re-analysis of the deposited data

How the results depend on the processing

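No paired analysis was possible because the labels give no replicate numbers and do not tie dorsal to ventral pools, and the numbers in the column headers are matched to no pool. Leaving out 1 library at a time gave 248 to 532 called genes in all (492 with all 8), 0 to 1 of the 9 genes called D>V, 1 to 2 called V>D, and 1 to 3 of the other pathway genes called V>D. The lowest of all came without the dorsal library V1 (157 D>V, 91 V>D), and 254 were called without the ventral library D3. The cause was not tested. Under rescaling to the same total FPKM and under quantile normalization 0 of the 9 genes were D>V, because Gucy1a2 had limma adjusted p = 0.155 and 0.0598. Library weights gave 2 V>D, Nos1 and Pde9a. Pseudocount 0.1, no filter, a filter of 5 FPKM and no threshold on the ratio changed no call among the 9 genes, of which Prkg1, Prkg2 and Pde5a were not tested with the filter of 5 FPKM.

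With the regions as the headers name them limma called 1 gene in all and 0 of the 9 or the other pathway genes. The log2 fold changes then were -0.0807 for Nos1, 0.0793 for Gucy1a2, -0.0502 for Gucy1a3, 0.0739 for Gucy1b3, -0.0883 for Prkg1, -0.0472 for Prkg2, -0.118 for Pde2a, 0.146 for Pde5a, -0.0298 for Pde9a, 0.0451 for Qdpr, -0.0177 for Pde1a and -0.137 for Cygb, while Npr3 kept its sign at 0.0726 (limma adjusted p = 0.985). With the 4 libraries whose header agrees 0 genes were called in all (1240 at an unadjusted p under 0.05), a fit with 2 libraries per region, and the log2 fold change was -0.0435 for Gucy1a3 and 0.0616 for Pde5a. With 1 library left out Gucy1a3 ranged from -0.0279 to 0.0469, and was below 0 without D2, V2 or D3. Leaving out both V2 and V4 was chosen after seeing the data and left 201 called genes, 0 of the 9 in either direction and 0 other pathway genes V>D, with Qdpr still D>V.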
